A study of Canis lupus familiaris with 18 samples.

Results

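The genes described here are 6 Ensembl dog genes whose levels went with light in cells that carry a light-driven cyclase: ENSCAFG00000009209, ENSCAFG00000016984, ENSCAFG00000018583, ENSCAFG00000016285, ENSCAFG00000016204 and ENSCAFG00000039271. They are 6 of the 32220 gene IDs counted, and all 6 passed the filter on low counts that kept 8530. They were chosen from these libraries, because light went with higher levels in cells with bPAC but not in parental cells, or did so only at the high dose. The light contrasts below are therefore a description and carry no test. By its title, the study asked how distinct levels of cyclic AMP act through protein kinase A on epithelial cells.

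The cells were MDCKI, an epithelial line from dog kidney that grows as a tight polarised sheet, either as the parental line or carrying bPAC. All were grown in medium with 0.5% serum and no phenol red, and light, where given, lasted 2 h and started 16 h after plating. The parental groups held 3 dark, 3 low light and 2 high light libraries, and the bPAC groups 3 dark, 4 low light and 3 high light libraries. The labels do not say which promoter drives bPAC, whether the line is 1 clone, or whether replicates came from separate cultures. They give no replicate numbers either: those used below follow accession order and only name a library. P-values thus measure the scatter among the libraries alone, which could be technical.

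As background, bPAC is a bacterial adenylyl cyclase with a blue light sensor: in light it turns ATP into cyclic AMP. Cyclic AMP binds the regulatory subunits of protein kinase A and frees the catalytic subunits, which phosphorylate many proteins, among them transcription factors of the CREB family. Phosphodiesterases degrade cyclic AMP and so limit the signal, and in kidney epithelium the pathway is best known for controlling water and salt transport. Illuminated parental cells lack the cyclase and so serve as the control for light and warmth alone. The count files give IDs without symbols, and the reference gene table held 0 of the 32220, so neither the role nor the sequence of any of the 6 genes is given here. The identity of the cells could not be checked against markers for the same reason.

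Levels are CPM, the reads of a gene scaled to a common total of gene reads, with TMM factors, which align libraries on their many little-changed genes. Gene reads ranged from 2638511 to 9610144 per library, so that 1 read stood for 0.101 to 0.413 CPM. The TMM factors of bPAC high light (0.785 to 0.918) lay below those of bPAC dark (1.05 to 1.08). With scaling by library size only, an alternative chosen after seeing the data, the median log2 fold change of all genes in bPAC high light moved from 0.03 to -0.28, and folds at that dose should be read against this shift. Multiply aligned reads were 41.7% to 44.4% of each bPAC high light table and 38.5% to 39.9% of each bPAC dark table. The part of this difference in the results was not tested.

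ENSCAFG00000009209 stood higher at each dose in bPAC cells. The bPAC dark libraries stood at 31.5, 27.5 and 19.7 CPM, the low light libraries at 158, 144, 160 and 201 CPM, and the high light libraries at 373, 544 and 386 CPM. No library of one dose overlapped with those of another. The fitted fold over the dark was 6.31 in low light (log2 fold change 2.66, SE 0.39) and 16.5 in high light (4.05, SE 0.43). In these bulk libraries, more cells with the transcript and more transcript per cell cannot be told apart, here and below.

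Parental cells held this transcript at 26.3, 8.85 and 12.9 CPM in the dark, 28.2, 28.6 and 11.3 CPM in low light, and 32.7 and 13.7 CPM in high light. These libraries overlapped throughout, with log2 fold changes of 0.46 (SE 0.40) at the low and 0.49 (SE 0.45) at the high dose. Without parental high light replicate 1 the latter was -0.26, and without parental dark replicate 1 the values were 1.05 and 1.07. The SDs of the parental groups, 9.11 to 13.4 CPM, exceeded the 7.20 CPM between their lowest and highest means. Mean CPM in bPAC cells exceeded that in parental cells by a ratio of 7.30 at the low dose and 18.7 at the high dose.

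ENSCAFG00000016984 stood highest at the low dose and lower again at the high dose. In bPAC cells it read 86.0, 78.4 and 77.9 CPM in the dark, 578, 364, 367 and 522 CPM in low light, and 176, 272 and 196 CPM in high light. The lowest low light library lay above the highest high light library, and every illuminated library lay above the dark. Low light gave a fold of 5.66 over the dark (log2 fold change 2.50, SE 0.23), high light 2.66 (1.41, SE 0.23), and high against low light a log2 fold change of -1.09 (SE 0.21).

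The parental line did not leave ENSCAFG00000016984 flat. Its dark libraries stood at 62.1, 64.6 and 92.7 CPM, its low light libraries at 96.8, 81.4 and 120 CPM, and its high light libraries at 158 and 128 CPM. The low light libraries overlapped with the dark ones, while both high light libraries lay above all dark ones, at a log2 fold change of 0.97 (SE 0.25). At the high dose the excess of the bPAC over the parental change was a log2 difference of 0.44 (SE 0.34), and at the low dose it was 2.06 (SE 0.31). At the high dose the bPAC libraries still lay above the parental ones, at a ratio of means of 1.51, but most of the change from the dark was seen in both lines.

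ENSCAFG00000018583 was the most abundant of the 6 and changed in opposite directions in the lines. In bPAC cells its 3 dark libraries read 649, 623 and 533 CPM. The low light libraries read 1536, 1190, 1130 and 1186 CPM, and the high light libraries 1020, 1154 and 1224 CPM. All 7 illuminated libraries lay above the dark ones, and the doses overlapped with each other. Low light gave a fold of 2.10 over the dark (log2 fold change 1.07, SE 0.17), and high light 1.88 (0.91, SE 0.18). Scaled by library size only, the high light value was 0.60 (SE 0.18).

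In parental cells the same gene stood at 790, 957 and 1107 CPM in the dark, 772, 620 and 704 CPM in low light, and 652 and 459 CPM in high light. Every illuminated parental library lay below every dark one. The log2 fold changes were -0.44 (SE 0.18) and -0.78 (SE 0.20). Set against the bPAC change, the difference of log2 fold changes was 1.51 (SE 0.25) at the low dose and 1.69 (SE 0.27) at the high dose. Illuminated bPAC cells exceeded dark parental cells by a ratio of means of 1.32 at the low dose and 1.19 at the high dose, where the libraries overlapped.

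**Figure D1:**
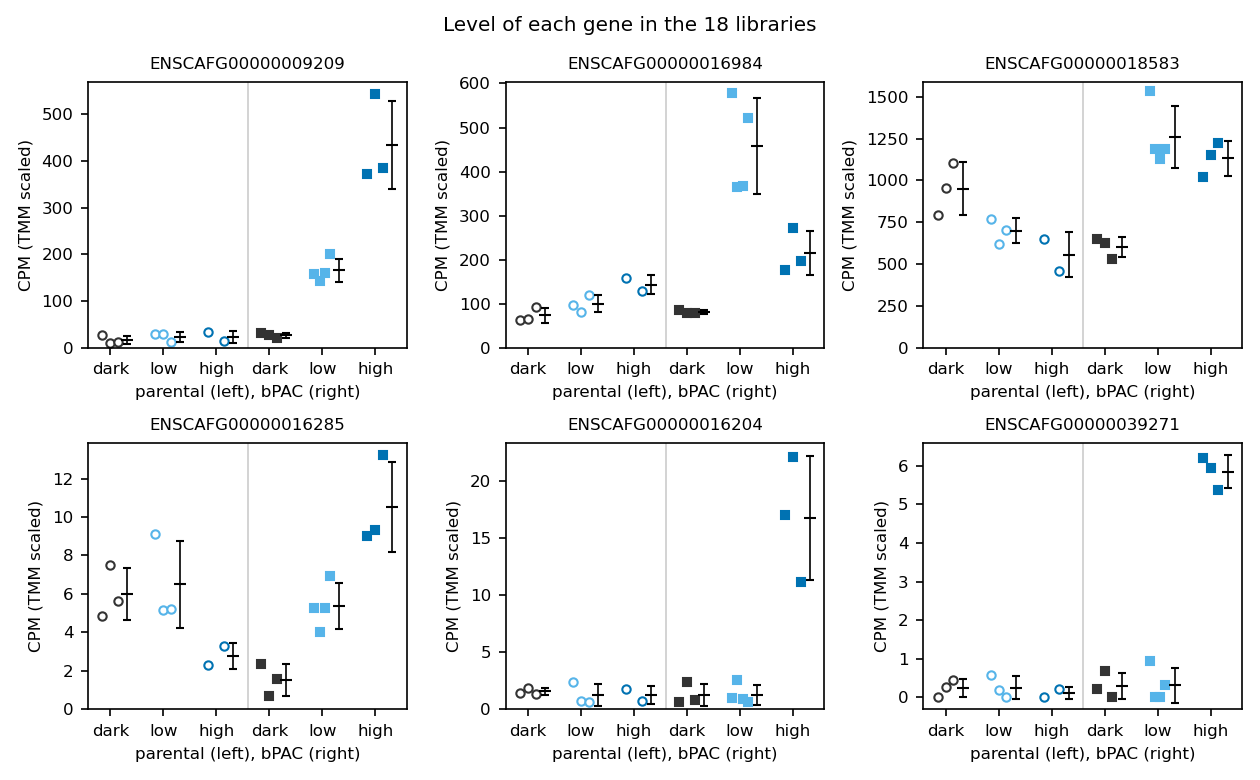
Level of each gene in every library, in TMM scaled CPM on a linear axis of its own per panel, with the parental line as open circles and the bPAC line as filled squares; the bar beside each group is the mean ± SD. ENSCAFG00000009209 climbs with dose, ENSCAFG00000016984 peaks at 457.7 CPM in low light, and ENSCAFG00000016204 and ENSCAFG00000039271 stand up only in bPAC high light.

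ENSCAFG00000016285 was a gene of low abundance that climbed with dose in bPAC cells from a dark level below that of the parental line. The bPAC dark libraries held 11, 2 and 6 reads, or 2.34, 0.679 and 1.57 CPM. The low light libraries stood at 5.25, 4.01, 5.27 and 6.91 CPM and the high light libraries at 8.99, 9.33 and 13.2 CPM, with no overlap between dark, low and high light. The fold over the dark was 3.30 in low light (log2 fold change 1.72, SE 0.39) and 6.33 in high light (2.66, SE 0.40).

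Parental libraries held ENSCAFG00000016285 at 4.83, 7.51 and 5.65 CPM in the dark, 9.12, 5.16 and 5.19 CPM in low light, and 2.28 and 3.26 CPM in high light. The high light libraries lay below all dark and low light ones, at a log2 fold change of -1.08 (SE 0.43) from the dark, resting on 9 and 14 reads. The bPAC low light libraries overlapped with the parental dark ones, at a ratio of means of 0.894. Only at the high dose did every bPAC library lie above the parental dark libraries, at a ratio of 1.75. With the parental low light libraries the bPAC libraries overlapped at both doses, at ratios of means of 0.826 in low and 1.62 in high light. At the high dose the bPAC change exceeded the parental one by a log2 difference of 3.74 (SE 0.59).

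ENSCAFG00000016204 showed no step at the low dose and a large one at the high dose. Its bPAC libraries stood at 0.639, 2.38 and 0.787 CPM in the dark and at 0.954, 2.54, 0.878 and 0.629 CPM in low light, which overlapped fully. In high light they stood at 17.0, 22.1 and 11.2 CPM, from 104, 78 and 27 reads, all above every other library of the series. The fold over the dark was 14.1 (log2 fold change 3.82, SE 0.54), and over low light 13.3 (3.73, SE 0.47). Without bPAC dark replicate 2, whose 7 reads were the most in that group, the log2 fold change over the dark was 4.49. In low light it was 0.08 (SE 0.63), and it ranged from -0.52 without bPAC low light replicate 2 to 0.79 without bPAC dark replicate 2. Parental libraries ranged from 1.36 to 1.88 CPM in the dark, 0.649 to 2.35 CPM in low light and 0.699 to 1.77 CPM in high light.

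ENSCAFG00000039271 followed the same course near the limit of detection. The 3 bPAC dark libraries held 1, 2 and 0 reads, the 4 low light libraries 4, 0, 0 and 2, and the 3 high light libraries 38, 21 and 13. Pooled, these come to 0.262 CPM in the dark (exact 95% Poisson interval 0.0540 to 0.765), 0.321 CPM in low light (0.118 to 0.698) and 5.96 CPM in high light (4.67 to 7.51). The ratio of high light to dark was 22.8 (exact 95% interval 7.49 to 113), and of low light to dark 1.23 (0.262 to 7.57). Such intervals cover counting error at most, since reads without molecular identifiers are not independent molecules. With reads pooled, they leave out the spread between libraries. They are no test of light either, since these contrasts were used to choose the gene. The fitted log2 fold change of high light over the dark was 4.33 (SE 0.88), and 5.33 without bPAC dark replicate 2. Parental libraries held 3 reads in the dark, 3 in low light and 1 in high light.

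Of the 6 genes, 4 had all low light above all dark libraries in bPAC cells, where 19.6% of the 8530 genes did, and all 6 had this in high light, where 21.5% did. These shares belong to contrasts that chose the genes, so nothing is read from them. Between high and low light in bPAC cells, 4 stood higher without overlap (10.5% of all genes) and 1 lower (11.3%), with ENSCAFG00000018583 overlapping. In parental cells ENSCAFG00000018583 alone lay below the dark without overlap in low light (16.3% of all genes), and none above (17.0%). In parental high light ENSCAFG00000016984 lay above (16.4% of all genes), and ENSCAFG00000018583 and ENSCAFG00000016285 lay below (16.1%). The median log2 fold change of the 6 was 1.40 in bPAC low light, 3.24 in bPAC high light, 0.22 in parental low light and -0.38 in parental high light, where all genes had medians of 0.03, 0.03, -0.01 and -0.02. Comparisons within a line share their dark libraries, so a low dark value raises both doses together.

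**Figure D2:**
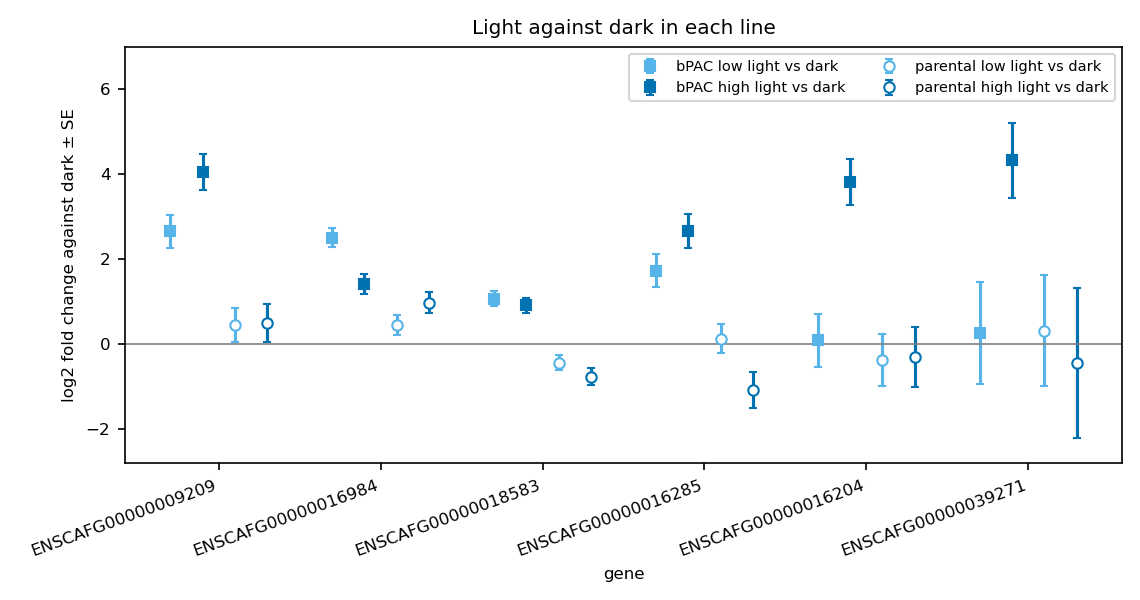
Fitted log2 fold change of low and high light against dark for each gene, in bPAC cells (filled squares) and parental cells (open circles), with bars of ± 1 SE from edgeR. The high light squares lie between 0.91 and 4.33 and the parental circles between -1.08 and 0.97.

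The dose curves took 3 forms, described here without a test. ENSCAFG00000009209 and ENSCAFG00000016285 were graded: the low dose gave 34.2% and 42.6% of the high dose gain in CPM, or 65.7% and 64.8% of the gain on the log2 scale. ENSCAFG00000018583 and ENSCAFG00000016984 had their highest mean at the low dose, where the gain was 124% and 281% of the high dose gain. For ENSCAFG00000018583 the doses overlapped, and the log2 difference of high from low light was -0.15 (SE 0.17), less than its error. ENSCAFG00000016204 and ENSCAFG00000039271 gained -0.117% and 0.358% at the low dose, so their change lay between the doses.

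By single libraries, the ranges overlapped between the doses for ENSCAFG00000018583 and not for the other genes given here. Over the mean of the dark libraries, the bPAC low light libraries of ENSCAFG00000009209 were 5.48-fold to 7.65-fold higher, and its high light libraries 14.2-fold to 20.7-fold. The matching ranges for ENSCAFG00000016984 were 4.51-fold to 7.16-fold and 2.18-fold to 3.37-fold. ENSCAFG00000016285 ran from 2.62-fold to 4.52-fold and from 5.87-fold to 8.64-fold. The narrowest ranges belonged to ENSCAFG00000018583, at 1.88-fold to 2.55-fold and 1.70-fold to 2.03-fold. ENSCAFG00000016204 ran from 0.496 to 2.00 times its dark mean in low light and from 8.81-fold to 17.4-fold in high light.

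**Figure D3:**
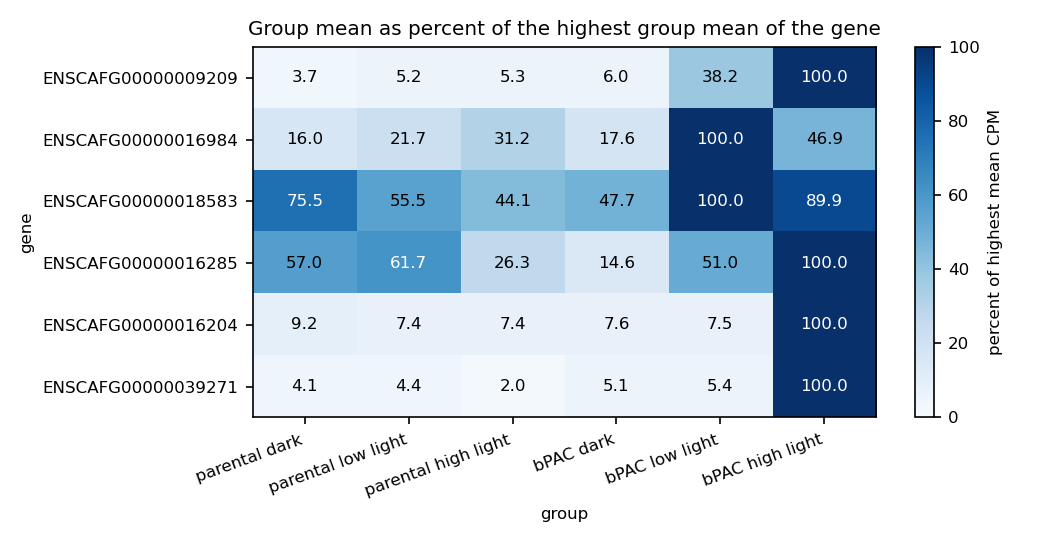
Mean CPM of each group as a percent of the highest group mean of the same gene, from 0 (white) to 100 (dark blue). For ENSCAFG00000016285 the parental dark mean reaches 57.0% of the bPAC high light mean, and for ENSCAFG00000018583 the parental dark mean reaches 75.5% of the bPAC low light mean.

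The order of the group means differed between the genes. For ENSCAFG00000009209 bPAC high light came first, then bPAC low light and bPAC dark, followed by the parental groups, and from bPAC dark downwards neighbouring groups overlapped. ENSCAFG00000016984 ran from bPAC low light through bPAC high light and parental high light to parental low light with no overlap between these neighbours, and the 3 lowest groups overlapped. For ENSCAFG00000018583 parental dark ranked 3 of 6 and bPAC dark 5 of 6, and the 1 pair of neighbours without overlap was parental dark and parental low light. For ENSCAFG00000016285 bPAC dark ranked last, and bPAC low light and parental high light were the 1 pair of neighbours without overlap. For ENSCAFG00000016204 and ENSCAFG00000039271 all 5 groups below bPAC high light overlapped with their neighbours.

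In the dark, ENSCAFG00000016285 and ENSCAFG00000018583 stood lower in bPAC than in parental cells. Both dark groups are the baselines of the light contrasts that chose the genes, and a choice of genes high over the bPAC dark but not over the parental dark favours this direction. The dark values are therefore a description with no test. ENSCAFG00000016285 stood at 1.53 ± 0.832 CPM in bPAC and 5.996 ± 1.37 CPM in parental cells (SD, n = 3 each), a log2 fold change of -1.85 (SE 0.41). ENSCAFG00000018583 stood at 602 ± 61.1 and 951 ± 158 CPM (SD, n = 3 each), a log2 fold change of -0.66 (SE 0.18). For both genes all 3 bPAC libraries lay below all 3 parental ones, as for 13.4% of all genes, while 14.3% lay above.

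With edgeR these 2 of the 6 genes were past the threshold, where 6.53% of the 8530 genes were called in either direction, 3.61% higher and 2.92% lower. Nothing is read from this count, since the choice used the same dark libraries. Over the alternatives the log2 fold change of ENSCAFG00000016285 ranged from -2.30, without bPAC dark replicate 1, to -1.54, without bPAC dark replicate 2. That of ENSCAFG00000018583 ranged from -0.74, without parental dark replicate 1, to -0.54, without parental dark replicate 3.

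The other 4 genes differed less between the lines in the dark, relative to their errors. ENSCAFG00000009209 had a log2 fold change of 0.67 (SE 0.40), from 26.2 ± 6.02 CPM in bPAC and 16.0 ± 9.11 CPM in parental cells (SD, n = 3 each). Without parental dark replicate 1 it was 1.30. ENSCAFG00000016984 had 0.15 (SE 0.23), from 80.8 ± 4.54 and 73.1 ± 17.0 CPM (SD, n = 3 each). ENSCAFG00000016204 had -0.36 (SE 0.64) and ENSCAFG00000039271 had 0.52 (SE 1.34), where the depth allows little to be seen.

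**Figure D4:**
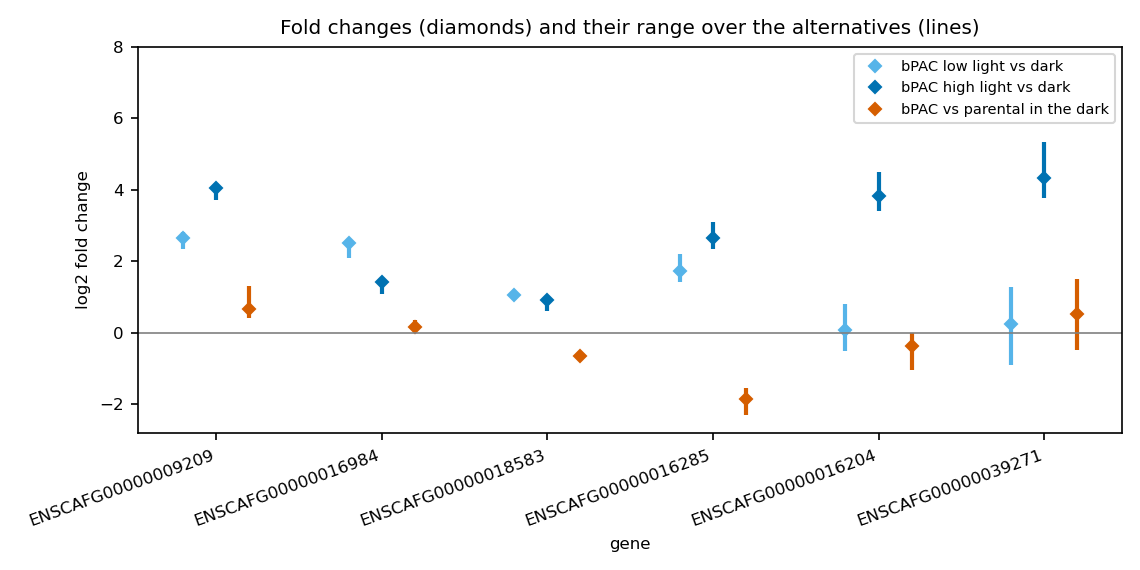
Log2 fold change of each gene in bPAC low light against dark, bPAC high light against dark, and bPAC against parental cells in the dark; diamonds are the reported values and lines span the lowest to highest value over the alternatives. In the dark ENSCAFG00000016285 stays between -2.30 and -1.54, while the low light value of ENSCAFG00000039271 spans -0.91 to 1.28.

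The 6 genes covered most of the range of abundance. In bPAC dark cells ENSCAFG00000018583 exceeded 97.0% of the tested genes, ENSCAFG00000016984 78.4%, ENSCAFG00000009209 57.1%, ENSCAFG00000016285 6.03%, ENSCAFG00000016204 4.08% and ENSCAFG00000039271 0.117%. In bPAC high light ENSCAFG00000009209 exceeded 94.9% and ENSCAFG00000016204 49.9% of them. Libraries were read from the 3' end, so these levels are per transcript end and are not divided by length. ENSCAFG00000039271 passed the filter on low counts through bPAC high light, the group where it is high. ENSCAFG00000016204 also passed it with only the dark and low light groups kept, though with few reads there.

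The spread between replicates also differed. The biological coefficient of variation fitted by edgeR was 32.8% for ENSCAFG00000009209, above 89% of the 200 genes nearest to it in mean level, whose median was 21.0%. It was 17.7% for ENSCAFG00000018583, against a median of 19.1% in its 200 nearest genes, and 21.0% for ENSCAFG00000016984, against 19.6%. For ENSCAFG00000016285 it was 22.3% against 25.6%, and for ENSCAFG00000016204 34.0% against 30.1%. The spread of ENSCAFG00000009209 was widest in parental cells, with an SD of 56.9% of the mean in the dark and 57.7% in high light, against 14.7% in bPAC low light.

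Whether the genes moved together was examined within groups, on the deviation of each library's log2 CPM from its group mean, because the group means themselves were used to choose the genes. None of the 15 pairs passed a permutation test with values permuted within groups after Benjamini-Hochberg adjustment, and 1 pair had an unadjusted p under 0.05. This pair was ENSCAFG00000016984 and ENSCAFG00000018583, with Pearson's r of 0.67 (n = 18, permutation p = 0.0123, adjusted 0.184) and Spearman's rho of 0.63 (permutation p = 0.0129, adjusted 0.194). Without the 2 libraries farthest on the first gene, bPAC low light 1 and bPAC high light 2, r was 0.64.

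The graded pair showed no such relation: ENSCAFG00000009209 and ENSCAFG00000016285 had r of -0.08 (n = 18, permutation p = 0.771, adjusted 0.924) and rho of -0.10 (permutation p = 0.726, adjusted 0.823). Pairs with ENSCAFG00000016204 or ENSCAFG00000039271 are not described singly: outside bPAC high light both had few reads, and counting error fills much of their deviations. ENSCAFG00000039271 also passed the filter on low counts through bPAC high light. A weak relation cannot be shown by 18 libraries in 6 groups.

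**Figure D5:**
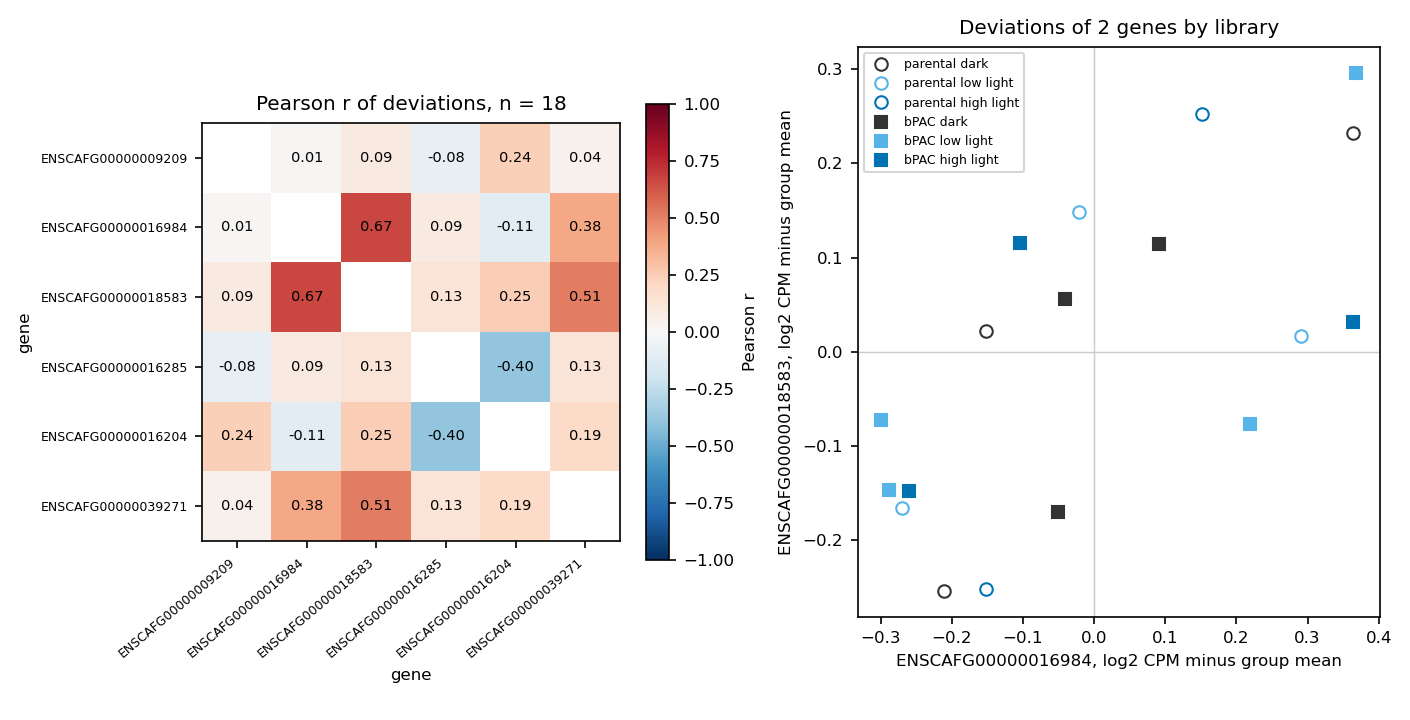
Left, Pearson's r between the genes over 18 libraries, each value being log2 CPM minus its group mean, from -1 (blue) to 1 (red). Right, these deviations for ENSCAFG00000016984 (horizontal) and ENSCAFG00000018583 (vertical), 1 point per library, where r is 0.67.

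The main axis of variation within groups, the first principal component of all genes' deviations, held 29.8% of that variance. It was related to the 6 genes after the data had been seen. Among bPAC low light libraries, replicates 1 and 4 scored 24.7 and 38.3 on it and replicates 2 and 3 scored -34.1 and -28.9, the same split as 578 and 522 against 364 and 367 CPM of ENSCAFG00000016984. Over all libraries the deviations of ENSCAFG00000016984 went with the axis at r of 0.79 (n = 18, permutation p = 0.0134, adjusted 0.0802 over 6 genes) and rho of 0.77 (permutation p = 0.0199, adjusted 0.12), with r of 0.75 without the 2 libraries farthest on the axis. None of the 6 genes passed the adjusted threshold, and 2 had an unadjusted p under 0.05. The other was ENSCAFG00000039271, from which nothing is read, since it passed the filter through bPAC high light and held 0 to 4 reads in each library elsewhere. With this axis as a covariate, the low light log2 fold change of ENSCAFG00000016984 moved by less than the spread between its replicates. With 1 surrogate variable in the model, which was estimated apart from this axis, it was 2.08 in place of 2.50.

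For each gene, the most similar of the other 8524 tested genes was sought by the root mean square difference of log2 CPM over the 18 libraries, each gene centred on its own mean. ENSCAFG00000004125 was nearest to ENSCAFG00000018583, at 0.28 log2 units, with 93.5 ± 16.2, 139.5 ± 28.5 and 121 ± 10.2 CPM in bPAC dark, low and high light (SD, n = 3, 4 and 3) and 131 ± 28.1, 112 ± 13.1 and 92.2 ± 12.8 CPM in the parental groups (SD, n = 3, 3 and 2). It had the same opposite slopes in the lines, over a smaller span. Such likeness, here and below, follows from the search over these same libraries, so nothing is read from it. ENSCAFG00000007309 was nearest to ENSCAFG00000016984, at 0.37, with 34.3 ± 0.893, 138.5 ± 24.5 and 76.7 ± 18.6 CPM in the bPAC groups, likewise highest at low light. In the parental groups it stood at 34.8 ± 10.4, 56.6 ± 8.21 and 52.0 ± 21.3 CPM. With an SD of 21.3 CPM over 2 high light libraries, whether it climbed there like ENSCAFG00000016984 cannot be told.

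ENSCAFG00000010596 was nearest to ENSCAFG00000009209, at a looser 0.70 log2 units, with 12.0 ± 3.11, 64.7 ± 34.3 and 139 ± 13.3 CPM in bPAC dark, low and high light (SD, n = 3, 4 and 3). In parental cells it stood at 8.68 ± 4.06, 9.83 ± 2.15 and 10.6 ± 2.51 CPM (SD, n = 3, 3 and 2). ENSCAFG00000007761 was nearest to ENSCAFG00000016285, at 0.53, with 3.52 ± 0.410, 6.28 ± 1.36 and 15.5 ± 1.10 CPM in the bPAC groups, and 6.63 ± 1.77, 6.74 ± 2.65 and 5.58 ± 0.0139 CPM in the parental groups. ENSCAFG00000040531 was nearest to ENSCAFG00000016204, at 0.68, and ENSCAFG00000013358 to ENSCAFG00000039271, at 0.74; in bPAC high light they stood at 3.37 ± 2.78 and 5.75 ± 1.15 CPM (SD, n = 3 each), with group means at or under 0.5195 CPM elsewhere. Among the 6 genes themselves the closest pair was ENSCAFG00000016204 and ENSCAFG00000039271, at 0.65, and the farthest ENSCAFG00000009209 and ENSCAFG00000016285, at 1.66. These distances include the group means used to choose the genes, so nothing is read from them. Both genes of the closest pair had few reads outside bPAC high light, and ENSCAFG00000039271 passed the filter on low counts through that group.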

How the data were processed

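Libraries were made with Lexogen's SPLIT extraction and QuantSeq 3' FWD kits, per the labels' protocols, and read from near the 3' end of transcripts. The authors deposited whole-number read counts per gene, not normalised, 1 table per library, on the CanFam3.1 build as the submitters' processing notes name it. Aligner, counting program and annotation: not given in the sources used here. Left out were the 5 rows without a gene: reads outside genes were 25.1% to 29.6% of a table and multiply aligned reads 37.5% to 44.4%.

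The genes and lists were chosen with earlier results of these data known. The dark comparison of lines, planned as a test, is given as a description for the 6 genes because their choice used both dark groups. All 18 libraries entered 1 edgeR 4.0.16 model of 6 groups in R 4.3.3 (filterByExpr, minimum count 10; TMM; glmQLFit, robust; glmQLFTest), with Benjamini-Hochberg adjustment over 8530 genes at 0.05. CPM values were computed from the counts; log2 CPM used a prior count of 2; SE is the absolute log2 fold change over the square root of F. On simulated counts of 8530 genes with 200 changed, the dark comparison of lines recovered 23% of 2-fold and 65% of 4-fold changes. Within-group relations used 100000 permutations. Named were the 6 genes and the nearest other gene of each. The 5 lists of cyclic AMP genes, the marker lists and the promoter search planned for this work need symbols and were not run. Alternatives used DESeq2 1.42.0, limma-voom (limma 3.58.1), sva 3.50.0, other scalings and filters, thinned libraries and leaving out each library.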

Additional observations from a re-analysis of the deposited data

Results flagged for a closer look

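In bPAC low light, the 1 group of 4 libraries, a library stood apart from the others for 2 of the 6 genes. ENSCAFG00000018583 reached 1536 CPM in replicate 1, a gap to the next library of 0.852 of the group's range. ENSCAFG00000016204 reached 2.54 CPM in replicate 2, from 12 reads, with a gap of 0.829 of the range, barely past the limit. About 1 in 20 groups of this size would be marked this way by chance.

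For ENSCAFG00000018583 every illuminated library went opposite ways in the lines. In low light the mean was 659 CPM above the dark in bPAC cells and stood at -252 CPM from the dark in parental cells. In high light the differences were 531 CPM and -396 CPM. For ENSCAFG00000016285 the same held in high light, with 8.99 CPM in bPAC cells and -3.23 CPM in parental cells. These differences between the lines were not tested, since they were used to choose the genes.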

How the results depend on the processing

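Between the lines in the dark, 557 genes and 2 of the 6 genes were called; the latter count is no evidence, since the choice of genes used the dark libraries. Without a filter on low counts the numbers were 864 and 1, with the within-group axis as a covariate 1101 genes, and with libraries thinned to the smallest 1 of the 6; the causes were not tested. On leaving out 1 library they ranged from 224 to 720 and from 0 to 2: 238 genes without parental dark replicate 2, 224 without replicate 3 and 238 without bPAC dark replicate 2, where none of the 6 was called. The number of coupled pairs was 0 under each alternative, leaving out 1 library included. Of 988 light values recomputed, 953 moved by less than the spread between replicates and 35 by more; of 497 differences between the lines' light responses, 35 moved by more. Of the 70 values of both kinds that moved by more, ENSCAFG00000039271, with a few reads outside bPAC high light, gave 34. No log2 fold change of bPAC high light against dark or low light changed sign for any of the 6 genes. Leaving out a library of a group of 2 left 1, assumed to vary like the other groups. ENSCAFG00000016204 and ENSCAFG00000039271 have no value under the filter at a mean of 5 CPM. No paired analysis was possible because the labels give no replicate numbers, and those used here, given in accession order, pair nothing.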
